A study of Homo sapiens with 32 samples.

Results

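A set of 10 chemokine and cytokine genes of HGrC1 cells were followed under perfluorooctane sulfonate (PFOS), a persistent fluorinated surfactant. They were chosen by name and all 10 of 10 were found among 47137 gene entries, of which 18583 held values. They are the CXC chemokines CXCL1, CXCL2, CXCL3 and CXCL8, the CC chemokine CCL2, the interleukins IL1A and IL1B, and IL6, IL11 and LIF of the IL-6 family. HGrC1 is an immortalized, non-luteinized human granulosa cell line. Cells of 4 vials were grown apart, and those of each vial were kept with solvent alone (the control, 0.05% DMSO) or with PFOS at 0.01 µM, 0.1 µM or 1 µM, added anew whenever the cells were passaged. RNA was taken after 6 and 12 weeks, which gave 8 groups of 4 libraries (n = 4) and 32 libraries in all. Every group was grown with 10% serum and a hormone at 100 nM. The hormone is estradiol in the sample labels and testosterone in the written methods. The library total lay between 17907056 and 18553348 counts, so that counts of a gene can be set side by side between libraries.

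In the ovary, granulosa cells surround the oocyte, and cytokine signalling accompanies ovulation, when the follicle takes on features of an inflamed tissue. IL-1 binds IL1R1 and its partner IL1RAP and signals through MYD88 and IRAK kinases to NF-κB, the transcription factor that raises the CXCL genes, IL6 and CCL2 in many cells. IL6, IL11 and LIF signal through the shared chain IL6ST (gp130) to JAK kinases and STAT3. CXCL1, CXCL2, CXCL3 and CXCL8 attract neutrophils through CXCR1 and CXCR2, and CCL2 attracts monocytes through CCR2.

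The line was checked against cell type markers. Of 16 granulosa markers, 15 had values. GATA4 was at 74.1 TPM (a level scaled to transcript length and library size, mean of 32 libraries), WT1 at 38.4 TPM and AMH at 13.7 TPM. FOXL2 was at 0.633 TPM. CYP19A1, which makes estradiol, never exceeded 1 count, HSD3B2 never exceeded 2 counts and AMHR2 never exceeded 3 counts. Of 12 leukocyte markers, 11 had values. CD68, a lysosomal protein that is also made outside the leukocytes, was at 21.4 TPM (243 to 497 counts) and CD14 at 7.67 TPM (33 to 190 counts), whereas CD3E and TYROBP were at 0 everywhere and PTPRC never exceeded 8 counts. Transcripts of 6 liver genes (AFP, AHSG, ALB, APOB, AMBP and GPC3) summed to 919 counts in control replicate 3 at 12 weeks, to 72 to 174 counts in the other 12-week libraries and in those of 0.1 and 1 µM at 6 weeks, and to 0 or 1 count in the control and 0.01 µM libraries at 6 weeks. PFOS calls that were lost without control replicate 3 are therefore given with and without it.

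CXCL8, CXCL1, CXCL3 and CXCL2 lie within 359 kb on chromosome 4, and IL1A and IL1B are 45.3 kb apart on chromosome 2 (GRCh38.p14, the build of the files). Upstream sequence was available for 8 members, all but LIF and CCL2, as 250 bases before the annotated start of each gene (RefSeq, GRCh38.p14). The sequences of the 3 members that passed a test of PFOS are shown, so that the motifs in front of them can be compared. The NF-κB consensus was found before CXCL1, CXCL2, CXCL3 and IL6 and in 9.96% of 35114 promoter windows of that length. The AP-1 motif TGANTCA was found before CXCL8, IL11 and IL1A and in 6.57% of the windows. The C/EBP motif TTNNGNAA was found before CXCL2, IL6, IL1A and IL1B and in 33.2% of the windows. Both strands were searched, and the motifs do not overlap each other in the windows shown. A match describes letters and not a bound site. Only exact matches were counted, so a window without a match, such as that of CXCL8 for NF-κB, may hold a site that departs from the consensus. In the windows of CXCL8 (chr4:73740319-73740568, plus strand) and IL11 (chr19:55370464-55370713, minus strand), capitals mark the AP-1 motif, which begins at position -137 and at position -96 from the start. In that of CXCL2 (chr4:74099196-74099445, minus strand) they mark the C/EBP motif at position -188 and the NF-κB consensus, which matches at positions -78 and -77.
CXCL8: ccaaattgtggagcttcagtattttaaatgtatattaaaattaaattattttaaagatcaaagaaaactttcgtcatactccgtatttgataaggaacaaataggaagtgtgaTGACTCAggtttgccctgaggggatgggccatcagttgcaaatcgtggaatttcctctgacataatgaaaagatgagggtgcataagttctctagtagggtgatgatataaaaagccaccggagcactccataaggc
IL11: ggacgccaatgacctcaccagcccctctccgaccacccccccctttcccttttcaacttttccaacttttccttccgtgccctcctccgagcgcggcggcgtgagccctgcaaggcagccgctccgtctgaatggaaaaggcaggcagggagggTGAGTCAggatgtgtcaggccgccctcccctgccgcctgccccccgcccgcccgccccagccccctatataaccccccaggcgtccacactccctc
CXCL2: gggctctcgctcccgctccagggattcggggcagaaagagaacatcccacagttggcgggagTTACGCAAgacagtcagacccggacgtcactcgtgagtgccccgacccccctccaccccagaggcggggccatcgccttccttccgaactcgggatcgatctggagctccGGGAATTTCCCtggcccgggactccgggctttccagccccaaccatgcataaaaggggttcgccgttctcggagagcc

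LIF, IL6 and CXCL2 were the abundant members and held 89.9% of the summed TPM of the 10 genes. Over the 32 libraries, LIF (gene ID 3976), which keeps mouse embryonic stem cells undifferentiated and acts at implantation, was at a mean of 152 TPM (range 97.3 to 208). IL6 (gene ID 3569) was at 133 TPM (63.3 to 199) and CXCL2 (gene ID 2920) at 118 TPM (41.9 to 208). LIF was above IL6 in 25 of 32 libraries and IL6 above CXCL2 in 23, so that the order of these 3 was not the same in every library. CCL2 (gene ID 6347) followed at 24.7 TPM and CXCL8 (gene ID 3576) at 12.4 TPM, and the steps from CXCL2 to CCL2, from CCL2 to CXCL8 and from CXCL8 to IL1B were seen in 32 of 32 libraries. IL1B (gene ID 3553) at 3.33 TPM and IL11 (gene ID 3589) at 2.44 TPM were less clearly ordered, with IL1B higher in 20 of 32 libraries. CXCL3 (gene ID 2921, 1.03 TPM), CXCL1 (gene ID 2919, 0.839 TPM) and IL1A (gene ID 3552, 0.427 TPM) were near the limit of detection, with 1 to 21 counts in each library. The ranges over all libraries overlapped for every neighbouring pair in this order.

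The MANE transcripts of CXCL1 and CXCL2 are identical at 90.9% of aligned bases with a longest identical run of 77 bases. For CXCL2 and CXCL3 these values are 83.6% and 97 bases, and for CXCL1 and CXCL3 81.7% and 55 bases. CXCL2 was at 141 times the mean TPM of CXCL1 and 115 times that of CXCL3, so a small share of CXCL2 reads assigned to a paralog would be large beside the few counts of CXCL1 and CXCL3, whose values are uncertain for that reason.

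**Figure D1:**
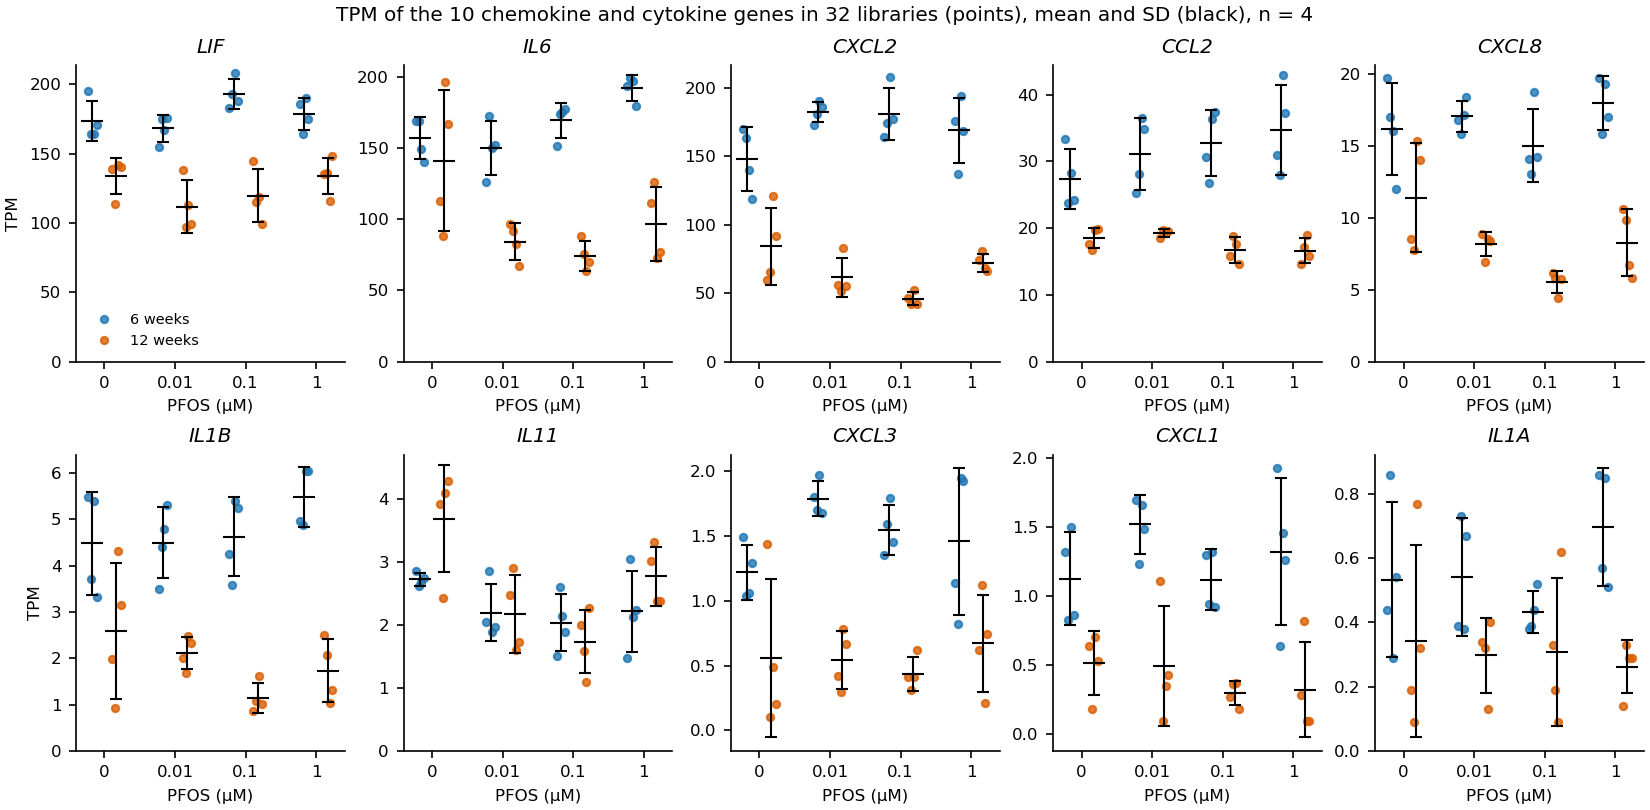
TPM (vertical axis, linear, one scale per gene) of the 10 genes against PFOS concentration, with each library as a point (blue 6 weeks, orange 12 weeks) and the mean ± SD of 4 libraries in black. For 9 of 10 genes the highest group mean was at 6 weeks, and for 7 of 10 the lowest was at 0.1 µM and 12 weeks.

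At 6 weeks, none of the 10 members passed the test at any PFOS concentration. The test was edgeR's quasi-likelihood test with Benjamini-Hochberg adjustment over all genes tested, and a gene with an adjusted p of 0.05 or less was called. At 0.01 µM 0 of 10 members were called by edgeR and 0 by DESeq2, as were 0.0% of 12836 genes, and 2 had an unadjusted p under 0.05 (9.6% of all genes). At 0.1 µM 0 of 10 were called beside 4.24% of all genes, with 3 under an unadjusted p of 0.05 (20.8% of all genes). At 1 µM 0 of 10 were called beside 0.28% of all genes, with 3 under an unadjusted p of 0.05 (13.7%). By DESeq2, LIF passed at 0.1 µM and IL6 at 1 µM.

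IL6 had the smallest adjusted p at 1 µM. Its counts at 6 weeks were 1713, 1776, 1531 and 1440 in control replicates 1 to 4, and 2078, 2167, 2153 and 1990 at 1 µM. The groups did not overlap, as for 3.24% of all genes in that direction, so any pairing of libraries puts IL6 higher in 4 of 4 vials. The log2 fold change was 0.39 ± 0.08 (SE) with an adjusted p of 0.0752 by edgeR's quasi-likelihood test. With the vial as a block, the adjusted p was 0.0406 and the call changed. Without vial 1 it was 0.000939, without vial 2 it was 0.0429 and without vials 3 or 4 it was 0.53 or 0.392. At 0.1 µM the counts were 1620, 1833, 1844 and 1901 and overlapped with the control.

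CXCL2 was at 1682, 1652, 1396 and 1165 counts in the 6-week control. It was at 1716, 1790, 1928 and 1857 counts at 0.01 µM, which lay above every control library, at 1650, 1726, 2066 and 1795 counts at 0.1 µM and at 1784, 1403, 1985 and 1745 counts at 1 µM. The log2 differences were 0.31 ± 0.12 (SE, adjusted p = 0.473), 0.31 ± 0.12 (adjusted p = 0.174) and 0.25 ± 0.12 (adjusted p = 0.414, edgeR). CXCL3 was also above every control library at 0.01 µM, with 16 to 19 counts beside 10 to 14, and non-overlap in this direction was seen for 2.07% of all genes.

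IL11, which acts on stromal cells and on decidualization, went the other way at 6 weeks without passing the test. Its counts were 69, 66, 66 and 67 in the control, a narrow range, and 38, 64, 53 and 48 at 0.1 µM, all below the control (non-overlapping downwards for 6.31% of all genes). The log2 difference was -0.39 ± 0.18 (SE, adjusted p = 0.217, edgeR). LIF at 0.1 µM was at 7887, 8103, 8763 and 8170 counts beside 8263, 7089, 6956 and 7164 in the control, a log2 difference of 0.17 ± 0.06 (adjusted p = 0.0872), and it passed when vial 1 was left out, as did IL6 at this concentration. CCL2 and IL1B at 1 µM differed from the control by 0.41 ± 0.16 (adjusted p = 0.292) and 0.35 ± 0.17 (adjusted p = 0.352) on the log2 scale. The liver transcripts differed between the same groups (0 or 1 count in the control, 88 to 141 at 0.1 and 1 µM), and their part in these values was not tested.

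**Figure D2:**
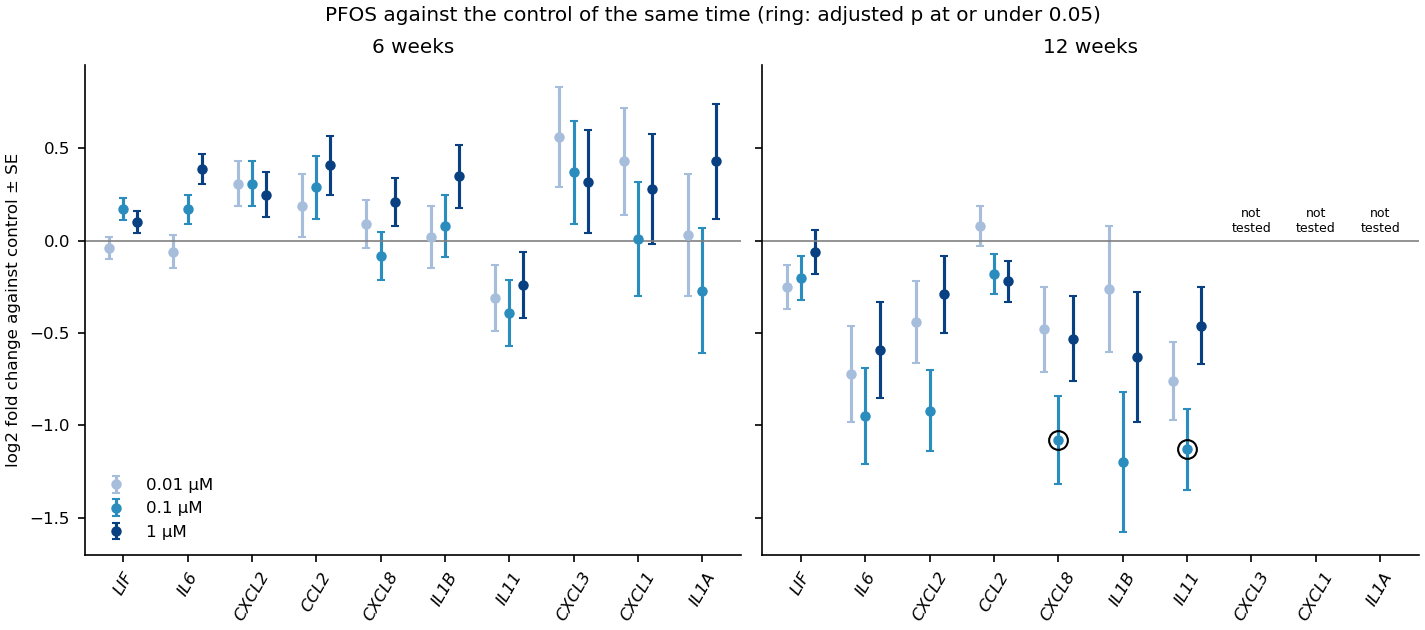
Log2 fold change against the control of the same time (vertical axis, ± SE, n = 4 libraries a group) for 3 PFOS concentrations at 6 weeks (left) and 12 weeks (right). Rings mark CXCL8 and IL11 at 0.1 µM and 12 weeks, the 2 values called by edgeR's quasi-likelihood test, and CXCL1, CXCL3 and IL1A were too low for the test at 12 weeks.

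At 12 weeks, CXCL8 and IL11 were lower at 0.1 µM than in the control, and all 7 members that could be tested had negative fold changes. The 2 calls among 7 members stand beside 1.07% of 12742 genes called in either direction and 0.542% called lower. Both were also changed by at least 2-fold, the threshold the study used beside its adjusted p, as were 0.0942% of genes. An unadjusted p under 0.05 was found for 5 of the 7, beside 15.4% of all genes. The median log2 fold change of the 7 members was -0.95 and that of all genes tested -0.0047. In these bulk samples, fewer cells that express a gene and less RNA per cell cannot be told apart.

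CXCL8 (IL-8) was at 143, 133, 268 and 242 counts in the 12-week control and at 103, 98, 73 and 96 counts at 0.1 µM. Every exposed library lay below every control library, but control replicates 3 and 4 were well above replicates 1 and 2. The log2 fold change was -1.08 ± 0.24 (SE, 2.12-fold lower, adjusted p = 0.0412, edgeR's quasi-likelihood test). The call was lost without vial 3 (-0.80, adjusted p = 0.495), without vial 4 (-0.99, adjusted p = 0.241) and without control replicate 3 alone (-0.90, adjusted p = 0.146). It was also lost with the vial as a block (adjusted p = 0.0962), with no filter on low counts (0.073) and in the fit of the 8 libraries of both groups (0.0869).

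IL11 was at 99, 62, 109 and 111 counts in the control and at 50, 39, 28 and 57 counts at 0.1 µM. The groups did not overlap, with the lowest control library (replicate 2) close to the highest exposed library (replicate 4). The log2 fold change was -1.13 ± 0.22 (SE, 2.19-fold lower, adjusted p = 0.017, edgeR). The call was kept with the block (adjusted p = 0.0175) and lost without vial 3 (-0.89, adjusted p = 0.243), without vial 4 (-1.20, adjusted p = 0.0889) and without control replicate 3 (-1.06, adjusted p = 0.084).

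In CPM after TMM scaling, CXCL2 and IL6 also did not overlap between these groups, so that 4 members were below every control library, as were 3.86% of all genes tested. CXCL2 was at 607, 679, 1289 and 971 counts in the control and at 480, 429, 530 and 430 counts at 0.1 µM, a log2 fold change of -0.92 ± 0.22 (SE, adjusted p = 0.0737, edgeR). IL6 was at 1177, 933, 2140 and 1830 counts in the control and at 934, 813, 671 and 723 counts at 0.1 µM. The difference of -0.95 ± 0.26 had an adjusted p of 0.117, and its groups only just separated. The highest exposed library (replicate 1) was at 51.4 CPM and the lowest control library (replicate 2) at 51.5 CPM, while their raw counts and TPM were in the opposite order (88.2 and 88 TPM). IL1B, at 29, 14, 65 and 49 counts beside 13, 16, 24 and 15 counts, had the most negative fold change (-1.20 ± 0.38, adjusted p = 0.139) and overlapped. CXCL2 and IL6 passed by DESeq2, and CXCL2, IL6 and IL1B passed when all 32 libraries shared one fit. Without control replicate 3, the values were -0.69 for CXCL2 (adjusted p = 0.202), -0.74 for IL6 (0.397) and -0.85 for IL1B (0.502).

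LIF and CCL2 differed least between control and 0.1 µM at 12 weeks. LIF was at 6091, 5024, 6472 and 6270 counts in the control and at 6377, 5009, 5152 and 4286 counts at 0.1 µM (log2 fold change -0.20 ± 0.12, adjusted p = 0.459, edgeR). CCL2 was at 101, 97, 117 and 118 counts and at 90, 108, 101 and 83 counts (-0.18 ± 0.11, adjusted p = 0.461). CXCL1, CXCL3 and IL1A held 1 to 17 counts per library at 12 weeks and were compared by an exact two-sided permutation test of log2(CPM + 1), 4 libraries against 4, whose smallest possible p is 0.0286. The 9 p-values lay between 0.171 and 0.914 (0.914 after adjustment over the 9).

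The other concentrations gave no calls at 12 weeks. At 0.01 µM 0 of 7 members were called by edgeR and 0 by DESeq2 (0.0% of all genes), and CXCL8, IL6 and IL11 had an unadjusted p under 0.05 (8.48% of all genes). IL11 was at 61, 75, 43 and 46 counts (-0.76 ± 0.21 on the log2 scale, adjusted p = 0.524, edgeR) and IL6 at 1014, 1009, 913 and 741 counts (-0.72 ± 0.26, adjusted p = 0.565). At 1 µM 0 of 7 were called by edgeR and 0 by DESeq2 (0.22% of all genes), with the same 3 members under an unadjusted p of 0.05 (8.75% of all genes) and negative values for 7 of 7. There CXCL8 was at 176, 167, 110 and 94 counts (-0.53 ± 0.23, adjusted p = 0.525) and IL6 at 1176, 1348, 758 and 791 counts (-0.59 ± 0.26, adjusted p = 0.552). Without control replicate 3, IL6 was at -0.51 for 0.01 µM and -0.38 for 1 µM, and CXCL8 at -0.29 and -0.34.

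The libraries of a 12-week group were not alike. In the control, replicates 3 and 4 were both above replicates 1 and 2 for 8 of 10 members, all but CXCL1 and CXCL3. In the 1 µM group the opposite order was seen, with replicates 1 and 2 above replicates 3 and 4 for 6 of 10 members (CXCL1, CXCL2, CXCL8, IL6, IL11 and IL1B). In the 0.01 µM group, 4 members had replicates 3 and 4 higher and 2 replicates 1 and 2, and in the 0.1 µM group these numbers were 0 and 2. At 6 weeks, replicates 3 and 4 were higher for 7 of 10 members at 0.1 µM, 4 at 0.01 µM, 3 at 1 µM and 0 in the control, so such an order was not limited to 12 weeks. The share of all genes with such an order is not given here. An order of these members and one of the whole libraries therefore cannot be told apart from these counts. In raw counts, IL1B spanned 4.64-fold between the highest and lowest control library at 12 weeks, IL6 2.29-fold, CXCL2 2.12-fold and CXCL8 2.02-fold, whereas LIF spanned 1.29-fold and CCL2 1.22-fold. IL11 lay between them at 1.79-fold. Of the 7 members tested, the 5 with the wider ranges were those with log2 fold changes of -0.92 to -1.20 at 0.1 µM.

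**Figure D3:**
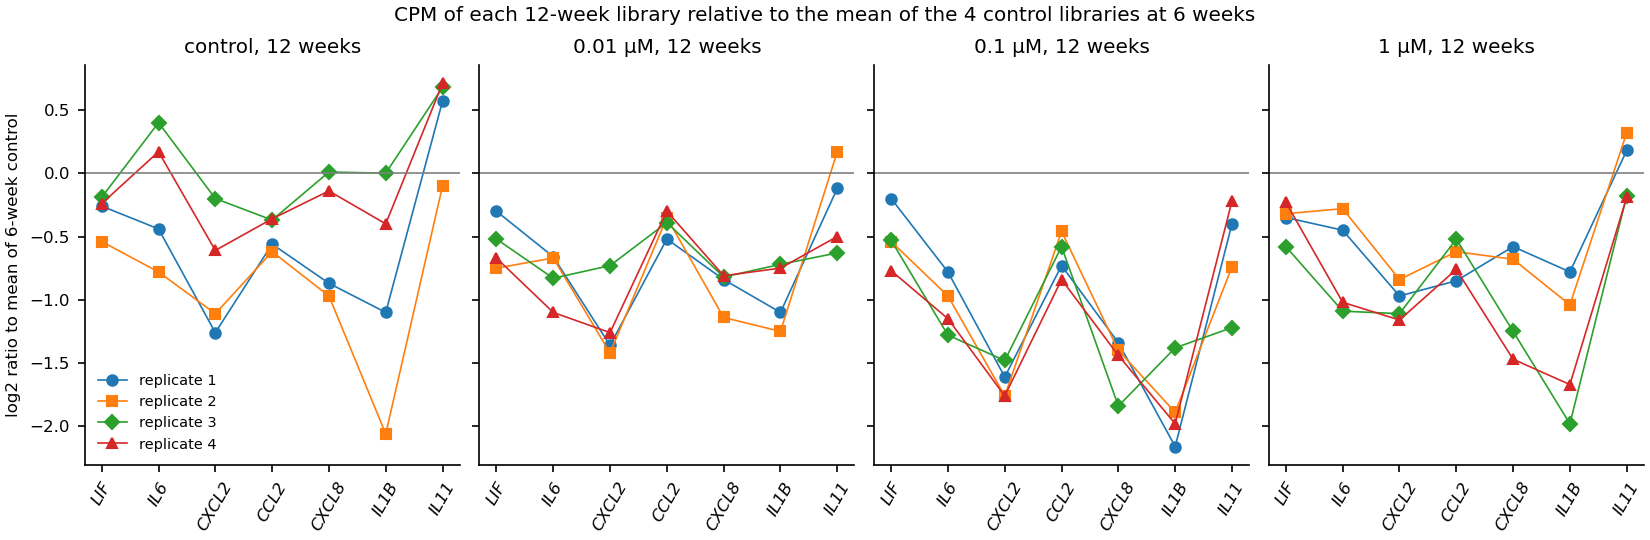
Log2 ratio of each 12-week library to the mean of the 4 control libraries at 6 weeks (vertical axis, CPM with 0.1 added) for the 7 members tested at 12 weeks, in one panel per group, with lines joining the genes of one library. Control replicates 3 and 4 lay above replicates 1 and 2 for all 7 genes shown, and the 4 libraries of 0.1 µM lay below the control libraries for CXCL2, CXCL8 and IL11, and for IL6 by 51.4 beside 51.5 CPM at the closest.

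The concentrations 0.1 and 1 µM were also compared with each other. At 6 weeks 0 of 10 members differed by edgeR and 0 by DESeq2 (0.0857% of all genes called), with 3 under an unadjusted p of 0.05 (6.25%). At 12 weeks 0 of 7 differed by edgeR and 0 by DESeq2 (0.0% of all genes called), again with 3 under an unadjusted p of 0.05 (7.72%). CXCL2 was at 748, 833, 679 and 654 counts at 1 µM and IL11 at 76, 85, 59 and 58 counts, all above their values at 0.1 µM, as for 3.05% of all genes. The log2 differences were 0.63 ± 0.23 for CXCL2 and 0.66 ± 0.23 for IL11 (adjusted p = 0.622 for each, edgeR).

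Between 6 and 12 weeks, 4 of 10 members fell in the control and 8 or 9 of 10 in the exposed groups. All 16 libraries of 12 weeks lay below all 16 libraries of 6 weeks for LIF (97.3 to 148 TPM beside 155 to 208 TPM) and CCL2 (14.6 to 19.8 TPM beside 23.7 to 43 TPM), 2 of 10 members beside 5.04% of 12988 genes. For CXCL2 and IL1B this held for 15 of 16 libraries of 12 weeks, for CXCL3 and CXCL8 for 14, for IL6 for 13, for CXCL1 for 12, for IL1A for 6 and for IL11 for 1. In the control, 5 of 10 members were called (36.6% of 12988 genes). Of these, CXCL2 (-0.73 ± 0.17 on the log2 scale), LIF (-0.30 ± 0.10), IL1B (-0.72 ± 0.27) and CCL2 (-0.48 ± 0.14) fell, beside 19.3% of genes that fell, and IL11 rose (0.51 ± 0.20, adjusted p = 0.0421, edgeR), beside 17.3%. CXCL1 and CXCL3 had the most negative values (-1.04 ± 0.44, adjusted p = 0.059, and -1.04 ± 0.43, adjusted p = 0.055). CXCL1 was at 9 to 16 counts at 6 weeks and 2 to 8 counts at 12 weeks, so any pairing of libraries puts it lower in 4 of 4 vials. CXCL1 was called with the vial as a block (adjusted p = 0.0415, edgeR). IL6 in the control was nearly level at -0.09 ± 0.19 (adjusted p = 0.748), with its 12-week libraries on both sides of the 6-week range.

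The calls in the control depended on single vials. Leaving out vials 1, 2, 3 or 4 gave 2, 2, 6 or 5 calls, and leaving out control replicate 3 at 12 weeks alone gave 7. The rise of IL11 was lost with each of vials 1, 3 and 4 left out, without control replicate 3, with no filter and by DESeq2 (highest adjusted p 0.191 over the alternatives). CXCL2 and IL1B lost their calls without vial 1 or 2 (up to 0.0689 and 0.265), IL1B also with no filter on low counts, LIF without vial 2 (0.113) and CCL2 without vial 1 (0.0982).

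The exposed groups had more calls than the control, which is not itself a test of a difference. The interaction test given below called 0 of 10 members at 0.01 µM, 1 at 0.1 µM and 0 at 1 µM. At 0.01 µM 8 of 10 members fell (42.7% of all genes were called and 21.3% fell), at 0.1 µM 8 of 10 (40.3% and 20.6%) and at 1 µM 9 of 10 (30.1% and 15.9%), all but IL11 at each concentration and IL1A at 0.01 and 0.1 µM. CXCL2 fell by 1.47 ± 0.18 on the log2 scale at 0.01 µM, by 1.96 ± 0.18 at 0.1 µM and by 1.26 ± 0.18 at 1 µM. IL6 changed by -0.75 ± 0.19, -1.21 ± 0.20 and -1.06 ± 0.19, and IL1B by -0.99 ± 0.28, -2.0 ± 0.31 and -1.70 ± 0.28. IL11 alone did not pass in any exposed group, with log2 values of 0.06 ± 0.22, -0.23 ± 0.23 and 0.29 ± 0.21.

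Other measures moved with time as well. The summed TPM of the leukocyte markers was 32 to 41.9 at 6 weeks and 19.6 to 32.5 at 12 weeks, most of it from CD68 and CD14, and that of 5 endothelial markers was 3.8 to 5.21 and 1.74 to 3.08. PTPRC, the marker of all leukocytes, stayed at or under 8 counts. The part of these transcripts in the changes over time was not tested. The sources used here name no batch of sequencing, and any such batch that followed the time could not be told apart from it.

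**Figure D4:**
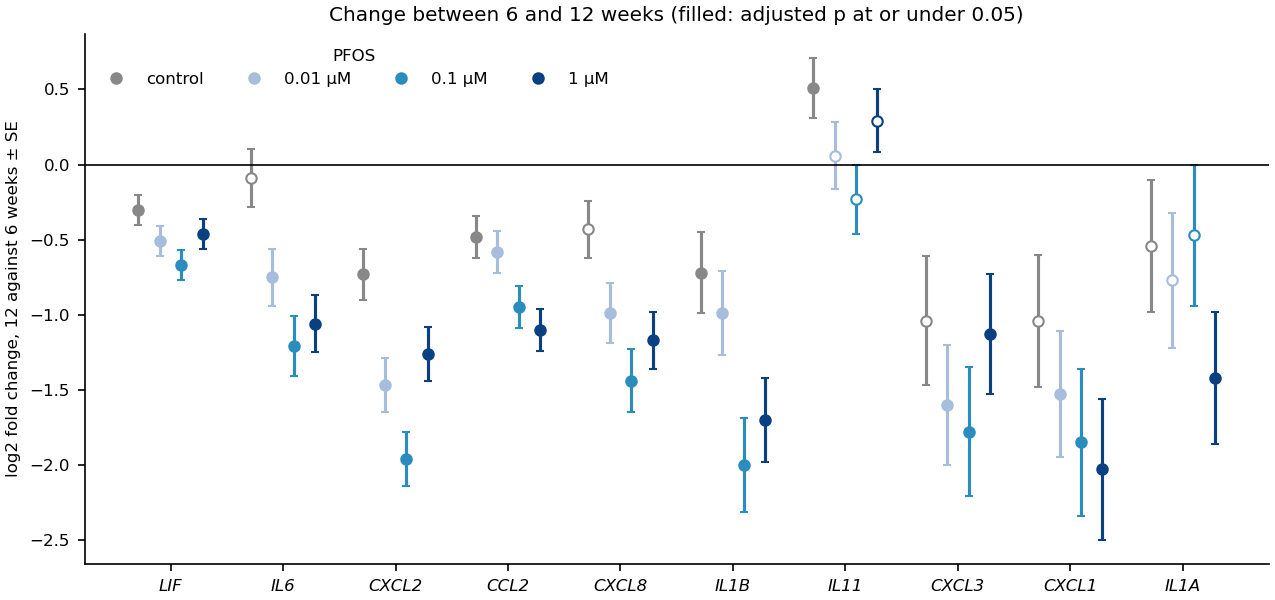
Log2 fold change between 6 and 12 weeks (vertical axis, ± SE, n = 4 libraries at each time) of the 10 genes in the control and at 3 PFOS concentrations, with filled points for an adjusted p at or under 0.05. Of the 40 values, 37 lie below 0, and IL11 holds the 3 above 0.

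Whether the effect of PFOS differed between 6 and 12 weeks was tested as an interaction over all 32 libraries. CXCL2 at 0.1 µM was called, 1 of 10 members beside 0.208% of 12988 genes. Its PFOS difference was positive at 6 weeks and negative at 12 weeks, as given above, and the interaction was -1.23 ± 0.25 (SE) on the log2 scale (adjusted p = 0.0395, edgeR). This call was lost without vials 2, 3 or 4 (adjusted p = 0.0614, 0.172 and 0.646), without control replicate 3 at 12 weeks (-1.0, adjusted p = 0.0881) and with no filter on low counts (0.0505). IL6 had an interaction of -1.12 ± 0.27 at 0.1 µM (adjusted p = 0.0755) and of -0.97 ± 0.27 at 1 µM (adjusted p = 0.153). At 0.01 µM 0 of 10 members were called by edgeR and 0 by DESeq2 (0.0% of all genes), with 3 under an unadjusted p of 0.05 (7.48%). At 1 µM 0 of 10 were called by edgeR and 1, IL6, by DESeq2 (0.123% of all genes by edgeR), with 5 under an unadjusted p of 0.05 (12.1%). At 0.1 µM that number was 7 (14.5%).

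The receptors that the chemokines act on were close to absent. CXCR1 and CXCR2 never exceeded 1 count and CCR2 was at 0 counts in 32 libraries. The gp130 chain IL6ST was at 42.4 TPM and OSMR, the receptor chain of oncostatin M, at 54.1 TPM, whereas IL6R was at 0.411 TPM. IL1R1, the signalling receptor of IL-1, was at 14.7 TPM. Of 18 receptors, decoys and antagonists, 0 of the 10 tested at 6 weeks and 0 of the 9 tested at 12 weeks were called by edgeR at any concentration. The shares of all genes called there were 0.0% to 4.24% at 6 weeks and 0.0% to 1.07% at 12 weeks. Between 6 and 12 weeks 5 of 10 fell and 1 rose in the control (19.3% of all genes fell and 17.3% rose), and 7 fell and 1 rose at 0.1 µM (20.6% and 19.7% of all genes). At 0.01 µM 4 fell and 1 rose (21.3% of all genes fell), and at 1 µM 6 fell and 0 rose (15.9% of all genes fell). IL1R1 changed by -1.12 ± 0.23 in the control and by -1.37 ± 0.23, -1.74 ± 0.23 and -1.49 ± 0.23 at 0.01, 0.1 and 1 µM. LIFR changed by -0.82 ± 0.21 and OSMR by -0.54 ± 0.07 in the control. The interaction test of PFOS and time called 0 of these 10 genes at each concentration, beside 0.0% to 0.208% of all genes.

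Genes downstream of these receptors were called against the control at 1 concentration and time. Of 20 signal carriers, 3 were called at 0.1 µM and 6 weeks, beside 4.24% of all genes, and none in the other 5 comparisons with control (0.0% to 1.07% of all genes). SOCS3, the inhibitor that STAT3 induces, rose by 0.48 ± 0.09 on the log2 scale (adjusted p = 0.0158, edgeR), and IRAK1 (-0.26 ± 0.06) and MYD88 (-0.14 ± 0.04) fell. Each of these 3 calls was lost without vial 1, 3 or 4, with adjusted p values of 0.0533 to 0.118 for SOCS3, 0.0952 to 0.153 for IRAK1 and 0.14 to 0.257 for MYD88. Each was also lost when all 32 libraries shared one fit (adjusted p = 0.0937, 0.0871 and 0.0965, edgeR). MYD88 was also not called by DESeq2 (adjusted p = 0.0542), or by edgeR with no filter on low counts (0.0578) or in the fit of 8 libraries (0.0675). SOCS3 and IRAK1 were called in each of these settings. Of 22 NF-κB subunits and feedback genes, 20 were tested and 0 were called in each of the 6 comparisons with control (0.0% to 4.24% of all genes). NFKBIA, which holds NF-κB in the cytoplasm, was higher at 1 than at 0.1 µM at 6 weeks (0.31 ± 0.05, adjusted p = 0.00496). Its call was lost without vial 3 (0.0558) and in the fit of all 32 libraries (0.175).

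In time, 5 of the 20 NF-κB genes fell and 3 rose in the control, close to the shares of all genes (19.3% and 17.3%). At 0.1 µM 9 fell and 2 rose, beside 20.6% and 19.7% of all genes. NFKBIZ, a cofactor that IL6 transcription uses, changed by -0.91 ± 0.12 in the control and by -1.08 ± 0.12 at 0.1 µM, and VCAM1 by -1.22 ± 0.30 and -2.27 ± 0.30. At 0.01 and 1 µM, NFKBIZ changed by -1.06 ± 0.12 and -1.01 ± 0.12, and VCAM1 by -2.26 ± 0.32 and -1.44 ± 0.28. NFKB1 rose in the control and at 0.1 µM (0.28 ± 0.05 and 0.33 ± 0.05), and at 0.01 and 1 µM (0.16 ± 0.05 and 0.30 ± 0.05). The interaction test of PFOS and time called 0 of the 20 NF-κB genes at each concentration, beside 0.0% to 0.208% of all genes. Of the signal carriers 9 fell and 0 rose in the control, among them JAK1 (-0.30 ± 0.03) and STAT3 (-0.18 ± 0.05), and 7 fell and 2 rose at 0.1 µM.

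Factors that destroy or protect cytokine mRNA were the list with the smallest adjusted p values under PFOS. Of 10, 3 were called at 0.1 µM and 6 weeks, beside 4.24% of all genes. ZC3H12A (Regnase-1), an endonuclease that degrades IL6 mRNA, fell by 0.33 ± 0.05 on the log2 scale (adjusted p = 0.000188, edgeR). ELAVL1 (HuR), which stabilizes such mRNAs, fell by 0.15 ± 0.04, a call lost without vial 1, 3 or 4 (adjusted p = 0.13, 0.205 and 0.0869). When all 32 libraries shared one fit, neither ZC3H12A nor ELAVL1 was called (adjusted p = 0.0754 and 0.158, edgeR). ZFP36L1, which promotes decay at AU-rich elements, rose by 0.29 ± 0.04 (adjusted p = 0.000687, and 0.0136 in the fit of all 32 libraries). ZC3H12A was also lower at 1 µM and 6 weeks (-0.24 ± 0.04, not called without vial 3 or 4, adjusted p = 0.175 and 0.149). It was not called there in the fit of all 32 libraries (adjusted p = 0.41, edgeR). At 12 weeks, ZFP36L1 was lower at 0.1 µM than in the control (-0.29 ± 0.06, adjusted p = 0.021), and this call was lost without control replicate 3 (-0.27, adjusted p = 0.0991) and without vials 2, 3 or 4 (0.0575, 0.346 and 0.165). The difference between the times was -0.58 (adjusted p = 0.000114) and was called with each vial left out and without control replicate 3 (adjusted p up to 0.0173).

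The members other than IL11 varied together across libraries. Of their 36 pairs, 36 had a positive Pearson correlation of log2 CPM over the 32 libraries and 35 exceeded 0.5, with a median of 0.782. Of all pairs of genes tested, 50.0% were positive and 9.69% exceeded 0.5. The 9 pairs with IL11 lay between -0.201 and 0.316. After each group's mean was taken off, the 36 pairs were positive with a median of 0.391, and 10 exceeded 0.5 (2.34% of all pairs), while the pairs with IL11 lay between -0.171 (CCL2) and 0.601 (IL6). These values describe libraries that share vials, times and depth. The part of reads assigned to a paralog in the pairs CXCL1 with CXCL2 (0.811), CXCL1 with CXCL3 (0.77) and CXCL2 with CXCL3 (0.761) was not tested. Outside the members, the gene most like CXCL2 was SAA1, an acute phase protein, with r of 0.971 (0.835 within groups). CXCL8 was most like NAMPT (0.959, and 0.833 within groups), IL6 like PHLDA1 (0.938, and 0.781 within groups) and IL11 like GSTA1 (0.807, and 0.659 within groups). For LIF it was C1QTNF1 (0.92, and 0.646 within groups), for IL1B ETV5 (0.913, and 0.624 within groups) and for CCL2 STEAP4 (0.912, and 0.51 within groups).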

How the data were processed

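RNA of 32 libraries was sequenced for the authors by BGI Tech Solutions as stranded poly(A) libraries. Reads were aligned to GRCh38 (per the labels, with HISAT2 2.0.4 and Bowtie2 2.2.5) and quantified with RSEM 1.2.8. The deposited expected counts per gene were not normalized and were rounded to whole numbers, which changed no value of the 10 members. The deposited TPM values were used for levels. Files of FPKM and normalized values were not used. Tests used edgeR 4.0.16 in R 4.3.3 (TMM, filterByExpr, robust quasi-likelihood F test, two-sided, Benjamini-Hochberg adjustment), with the 16 libraries of one time in one fit, and all 32 for times and interactions. The filter left 12836, 12742 and 12988 genes. DESeq2 1.42.0, other filters and fits, and leaving out vials were alternatives. Scripts were checked on simulated counts. Members, gene lists and tests were chosen with earlier results of these data known. Genes of a list were named where called, at most 5 per list and comparison by adjusted p, and genes alike by the highest r.

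Per the labels, cells of each of 4 vials entered all groups, so replicate numbers pair libraries. Same-numbered libraries of different groups were correlated across genes after each group's mean was taken off each gene. The mean correlation of these deviations was 0.0496 to 0.0834 at 6 weeks and -0.0929 to 0.153 at 12 weeks. It was lowest between the control and 1 µM at 12 weeks.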

Additional observations from a re-analysis of the deposited data

Results flagged for a closer look

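In 80 sets of 4 libraries (10 genes in 8 groups), the gap between the outermost library and its neighbour was large against the whole range of CPM in 3, no more than chance alone gives (about 1 of 20 sets). CXCL8 was lowest in 0.01 µM replicate 2 at 12 weeks (118 counts beside 146, 150 and 148). IL11 was highest in 0.01 µM replicate 2 at 6 weeks (71 counts beside 50, 48 and 48), and LIF was lowest in 0.01 µM replicate 1 at 6 weeks (6531 counts beside 7440, 7242 and 7547, or 359 CPM beside 407, 401 and 408, with the gap over the limit in CPM alone). The effect of 0.1 µM PFOS on CXCL2 differed between 12 and 6 weeks by -1.23 on the log2 scale (edgeR interaction, adjusted p = 0.0395), the call given in the report with the libraries it rests on.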

How the results depend on the processing

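Of 758 values of 73 single-gene results under the alternatives, 707 kept their direction and side of the threshold, 30 lost a call, 21 gained one and 0 reversed. The 73 were those with an unadjusted p under 0.05 in the main edgeR test, so calls gained by other results are not among the 21. At 0.1 µM and 12 weeks, CXCL8 lost its call in 6 of 12 alternatives and IL11 in 3 of 12. The CXCL2 interaction at 0.1 µM lost its call in 5 of 10. At 0.1 µM and 6 weeks, where 0 members were called, DESeq2 called 1 (LIF), and leaving out a replicate gave 0 to 2. At 1 µM and 6 weeks, DESeq2, the fit of 8 libraries and the replicate block each called 1 (IL6), and leaving out a replicate gave 0 to 1. At 0.1 µM and 12 weeks, the 2 calls became 4 with DESeq2 and 5 with all 32 libraries in one fit, but 1 (IL11) with no filter, with 8 libraries and with the replicate block, and 0 to 2 with a replicate left out. In the control over time, the 5 calls became 3 with no filter and 2 to 7 with a replicate left out. For the interaction at 0.1 µM, the 1 call became 2 with DESeq2, 0 with no filter and 0 to 1 with a replicate left out. For that at 1 µM, DESeq2 called 1 (IL6). Between 1 and 0.1 µM at 12 weeks, the fit of 8 libraries called 1 (CXCL2). The replicate block changed no other count of members by more than 1.5 times. The causes were not tested, and some of these fits held fewer libraries. At 1 to 21 counts, CXCL1, CXCL3 and IL1A allow only large changes to be seen.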

Other observations

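Among 25 other cytokines, IL32, a proinflammatory cytokine, was the most abundant at 724 TPM (616 to 933 over 32 libraries). It rose between 6 and 12 weeks in every group, by 0.32 ± 0.07 (SE) on the log2 scale in the control, 0.21 ± 0.07 at 0.01 µM, 0.21 ± 0.07 at 0.1 µM and 0.35 ± 0.07 at 1 µM (adjusted p of 0.000322 to 0.0187, edgeR's quasi-likelihood test). TNFSF10 (TRAIL), which triggers death receptors, fell in the exposed groups, with log2 fold changes of -1.53 ± 0.29, -1.76 ± 0.28 and -1.49 ± 0.28. In the control it was not called. IL18 changed by -0.94 ± 0.26 in the control, -1.12 ± 0.27 at 0.01 µM and -1.05 ± 0.27 at 0.1 µM, and was not called at 1 µM. CSF1, the growth factor of macrophages, changed by -0.21 ± 0.06 in the control. At 0.01, 0.1 and 1 µM it changed by -0.39 ± 0.06, -0.58 ± 0.06 and -0.19 ± 0.06. Of the 11 cytokines of this list tested over time, 3 rose and 3 fell in the control, beside 17.3% and 19.3% of all genes (median log2 fold change 0.06 beside 0.004 over all genes), and 2 rose and 5 fell at 0.1 µM, beside 19.7% and 20.6% (median -0.18 beside 0.008). Against the control of the same time, 0 of 11 at 6 weeks and 0 of 10 at 12 weeks were called at any concentration. The shares of all genes called there were 0.0% to 4.24% at 6 weeks and 0.0% to 1.07% at 12 weeks. The interaction test of PFOS and time called 0 of the 11 at each concentration, beside 0.0% to 0.208% of all genes.

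Of 23 other CXC and CC chemokines, only 7 were high enough to be tested at 6 weeks or over time and 4 at 12 weeks. Against the control of the same time, 0 were called under PFOS, beside 0.0% to 4.24% of all genes. CXCL16, a membrane-bound chemokine, rose over time in every group, by 1.02 ± 0.21 in the control, 0.85 ± 0.21 at 0.01 µM, 1.16 ± 0.21 at 0.1 µM and 0.78 ± 0.21 at 1 µM. CXCL5, a neighbour of the members in the same chemokine cluster, fell in the exposed groups (-1.25 ± 0.43, -1.63 ± 0.46 and -1.11 ± 0.42) at 1 to 16 counts per library. In the control it was not called. The interaction test of PFOS and time called 0 of these 7 chemokines at each concentration, beside 0.0% to 0.208% of all genes.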
